A study of Mus musculus with 4 samples.

Results

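Myeloid C-type lectin receptors were followed in cells labelled as peritoneal macrophages, on 4 arrays that crossed genotype with lipopolysaccharide (LPS), the bacterial outer membrane component sensed by Toll-like receptor 4. The sample titles call the cells PEC (peritoneal exudate cells), and markers of other cell types were also detected on the arrays. The set named 10 genes, and its probes were those whose accession the RefSeq table used here assigns to one of them. These came to 12 probes of 9 genes, out of 56605 probes and 22907 named genes on the array. Of the 9 genes, 8 were well above background on all 4 arrays, through 11 of the 12 probes. The single Clec4a2 probe stayed below the detection rule (well above background) on all 4 arrays, and no probe was matched to Clec7a, which is not analysed here. Probes whose accession that table does not hold stayed unnamed, so a probe for Clec7a may be among them.

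The 4 groups were wild-type cells without LPS (0 h) and with LPS for 3 h, and LysM-St18flox cells at the same times, with 1 array in each. The genotype's name refers to the lysozyme promoter, a common driver of Cre in macrophages and neutrophils, and to a floxed St18, a zinc finger transcription factor gene. Per the labels' protocols, all mice were injected with 4% thioglycollate, which elicits leukocytes into the peritoneum, and their lavage cells were taken after 3 days. Zygosity, the age of the mice, the number pooled and the dose of LPS are not given in the sources used here. A value below is the log2 of a spot's processed signal over the 75th percentile of its array, so that 0 stands at that percentile and 1 unit is a 2-fold difference. With 1 array in a group, no difference here has a replicate check and none was tested. In bulk RNA, fewer cells of a type and less RNA per cell cannot be told apart.

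C-type lectin receptors are surface proteins of myeloid cells that bind sugars and glycolipids of microbes, or ligands from damaged cells. Activating members such as Clec4e (Mincle), Clec4d (MCL) and Clec4n (Dectin-2) signal through the adaptor chain encoded by Fcer1g, and Clec5a (MDL-1) through that encoded by Tyrobp. Both adaptors engage the kinase Syk, and from there the Card9, Bcl10 and Malt1 complex leads to NF-kB. Clec4a2 (DCIR1) and Clec12a (MICL) carry inhibitory motifs that recruit phosphatases, and Clec2d (Clr-b) is a widely expressed ligand of an inhibitory natural killer cell receptor.

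The promoters of the members on which the results turn are shown first. They are those of Clec4e and Clec4d, neighbours on the chromosome that were higher after LPS in both genotypes, and of Clec2d, whose LPS difference was larger in LysM-St18flox cells. The sequences are from RefSeq (GRCm38.p6), run from 250 bases before to 50 bases after the annotated start, and have every match of a searched motif in capitals.
Clec4e, GRCm38.p6 chr6:123289822-123290121, minus strand: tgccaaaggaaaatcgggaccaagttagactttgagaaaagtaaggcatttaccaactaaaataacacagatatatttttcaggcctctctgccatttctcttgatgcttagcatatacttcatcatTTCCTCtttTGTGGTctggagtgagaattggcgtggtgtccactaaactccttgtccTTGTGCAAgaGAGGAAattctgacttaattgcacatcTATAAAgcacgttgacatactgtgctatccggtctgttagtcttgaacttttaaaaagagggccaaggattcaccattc
Clec4d, GRCm38.p6 chr6:123261857-123262156, plus strand: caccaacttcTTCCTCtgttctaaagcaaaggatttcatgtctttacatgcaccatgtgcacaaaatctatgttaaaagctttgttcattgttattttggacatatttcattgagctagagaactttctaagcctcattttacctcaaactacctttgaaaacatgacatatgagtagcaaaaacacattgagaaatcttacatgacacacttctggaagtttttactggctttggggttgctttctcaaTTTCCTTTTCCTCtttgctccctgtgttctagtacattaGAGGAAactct
Clec2d, GRCm38.p6 chr6:129180365-129180664, plus strand: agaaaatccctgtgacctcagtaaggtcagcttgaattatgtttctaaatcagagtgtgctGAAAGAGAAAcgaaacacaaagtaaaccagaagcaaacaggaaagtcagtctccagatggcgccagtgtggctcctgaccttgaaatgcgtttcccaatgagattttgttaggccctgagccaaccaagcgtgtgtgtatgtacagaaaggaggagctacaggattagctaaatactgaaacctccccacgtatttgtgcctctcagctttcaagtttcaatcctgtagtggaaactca

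The search covered both strands for 10 short motifs. These were NF-kB (by its usual consensus), C/EBP (TTGCNNAA), AP-1 (TGACTCA), the interferon-stimulated response element or ISRE (by its core consensus), the PU.1 core (GAGGAA), a STAT site (TTCNNNGAA), CRE (TGACGTCA), RUNX (TGTGGT), the E-box (CACGTG) and, for the TATA box, the letters TATAAA. In the Clec4e promoter, a TATA match began 29 bases before the start and a C/EBP match 66 bases before it, with PU.1 core matches at 56 and 123 bases and a RUNX match at 114 bases before it. In the Clec4d promoter, an ISRE match began at base 1 of the transcript and overlapped a PU.1 core match at base 8. The Clec2d window held 1 match, an ISRE 189 bases before the start.

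Over all 32851 promoters of the same length, 3.44% held the ISRE, 10.8% the C/EBP motif, 13.6% the TATA motif, 16.8% the RUNX motif and 28.3% the PU.1 core. The set had 11 promoters of 9 members, Clec7a included, while Clec4n was not listed. Of these 11, 8 held the PU.1 core, 6 the RUNX motif, 4 the TATA motif and 2 each the ISRE (Clec4d and Clec2d) and the C/EBP motif (Clec4e and Clec12a). Clec7a and Clec4a3 had 2 overlapping windows each. The same PU.1 core match of Clec7a and the same RUNX match of Clec4a3 were thus counted in both windows. The promoter of Clec4a2 alone held the STAT site, against 8.30% of all, and the AP-1 motif, against 5.20%. None held the NF-kB (8.46% of all), CRE (1.79%) or E-box (7.15%) letters. A match describes the letters in this window and shows no binding.

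Several features of the arrays bear on these values. No spot was saturated, and all 4 arrays were on 1 slide with 1 scan time. As a check of the labels, the brighter of the 2 probes for St18 was detected only on the wild-type arrays; LysM-St18flox cells were at least 7.07-fold below at 0 h and at least 8.48-fold at 3 h. Whether that probe covers the altered stretch of St18 is not given in the labels. All 10 macrophage markers and all 4 monocyte markers were well above background on every array. The wild-type 0 h array stood apart in the agreement between probes of one gene, with a median disagreement of 0.29 over 4217 genes, against 0.13 to 0.16 on the other 3. It enters the wild-type LPS response, the genotype difference at 0 h and the difference between the LPS responses, but not the comparison of genotypes at 3 h. Probes printed 10 times gave a spot error (SD of a between-array difference of single spots) of 0.05 to 0.06, which covers spot error alone.

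**Figure D1:**
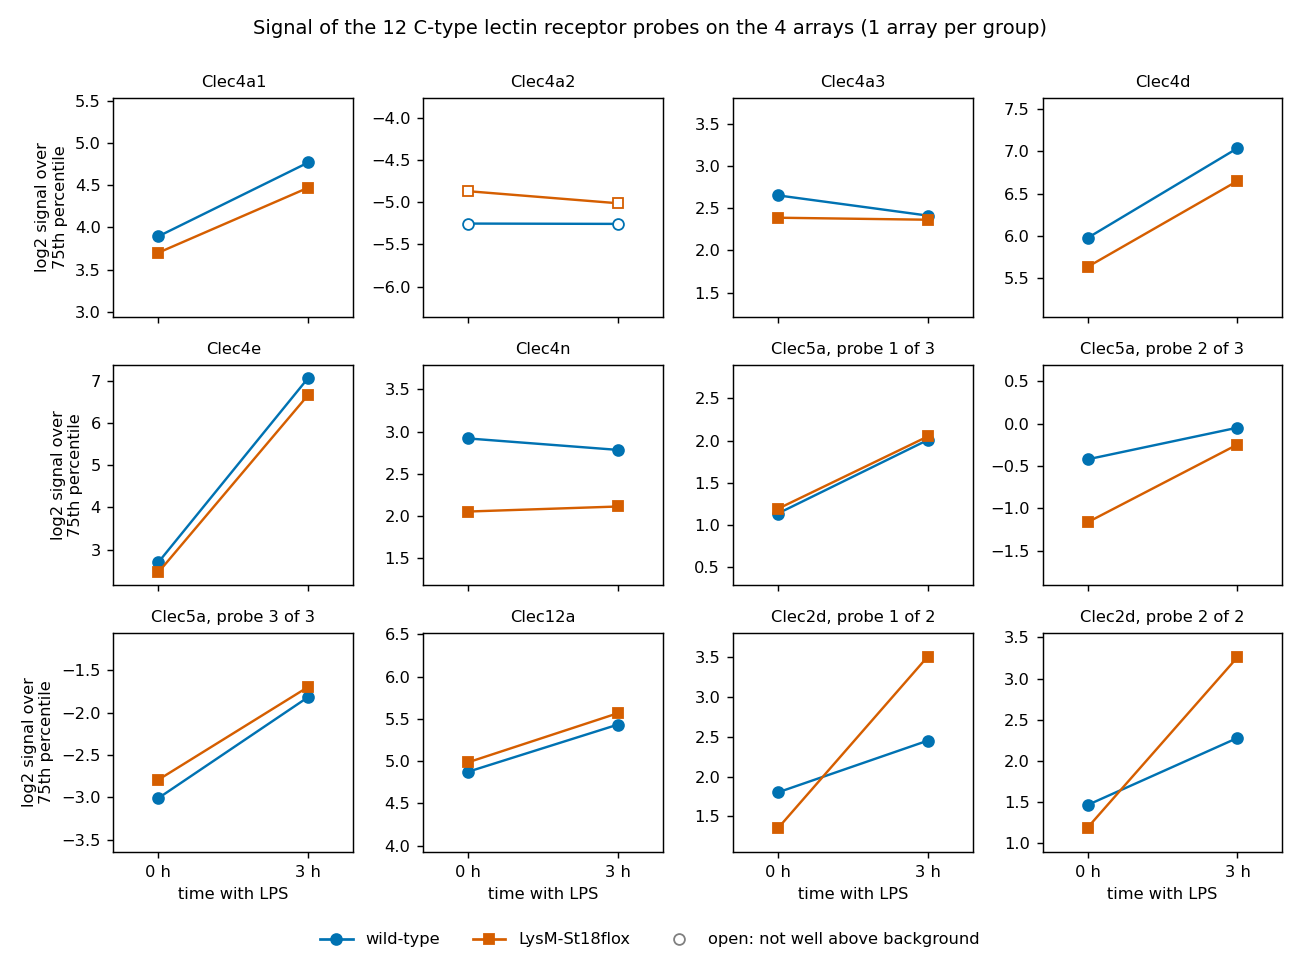
Log2 signal over the array's 75th percentile (vertical axes) at 0 h and 3 h of LPS for each of the 12 probes, with wild-type as circles and LysM-St18flox as squares; each symbol is 1 array and lines join the arrays of a genotype. Clec4e climbs from 2.70 to 7.08 and from 2.46 to 6.67, the lines of both Clec2d probes cross, and the open symbols of Clec4a2 are not well above background. Vertical axes differ in their range between panels.

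The LPS response asked which receptors differed after 3 h, and the Mincle gene Clec4e had by far the largest difference of the measured members. Its signal was 2.70 in wild-type cells at 0 h and 7.08 at 3 h, and 2.46 and 6.67 in LysM-St18flox cells. Both stimulated arrays were thus far above both unstimulated arrays. This was a 20.8-fold difference in wild-type cells (log2 4.38) and an 18.5-fold difference in LysM-St18flox cells (log2 4.21), about the same in the 2 genotypes. Of 12586 genes measured in wild-type cells, 63 had a higher difference, and of 12973 in LysM-St18flox cells, 76.

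Clec4d, whose product pairs with Mincle at the cell surface, was already bright without LPS. Its signal was 5.98 at 0 h and 7.04 at 3 h in wild-type cells, and in LysM-St18flox cells 5.63 and 6.65. The LPS difference was 2.09-fold (log2 1.06) and 2.02-fold (log2 1.02). These lie just past the 2-fold threshold, and under quantile normalization they were 0.98 and 0.85, with the direction kept.

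Clec4n, which encodes the mannan receptor Dectin-2 and uses the same adaptor chain, did not share this pattern. In wild-type cells its signal was 2.92 at 0 h and 2.78 at 3 h, and in LysM-St18flox cells it was 2.06 and 2.11. The LPS differences were -0.14 and 0.06, and the second turned to -0.05 under quantile normalization and to -0.04 in the deposited value table. Its arrays differed more between genotypes than between times.

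Among the other activating receptors, Clec5a had 3 probes. The brightest read 1.14 at 0 h and 2.01 at 3 h in the wild type, and 1.19 and 2.05 in LysM-St18flox cells, so that its LPS differences were 0.87 and 0.86. The dimmest gave 1.20 and 1.10. The middle one gave 0.37 and 0.92, with its wild-type 0 h signal at -0.42 and its LysM-St18flox 0 h signal at -1.17. All 3 probes were thus higher after LPS in both genotypes, between 1.30-fold and 2.29-fold, and their differences spread more in wild-type cells, whose 0 h array has the larger disagreement between probes.

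Clec4a1 (DCIR4) was also higher after LPS, at 3.89 and 4.77 in wild-type cells and at 3.70 and 4.47 in LysM-St18flox cells. These are differences of 0.87 and 0.77. Its neighbour Clec4a3 (DCIR3) read 2.65, 2.41, 2.39 and 2.36 in the order wild-type 0 h and 3 h, LysM-St18flox 0 h and 3 h. Its LPS differences of -0.24 and -0.02 were the lowest of the measured members on average, and the second was 0.21 under median scaling.

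The inhibitory receptor gene Clec12a was moderately higher after LPS in both genotypes. It read 4.87 at 0 h and 5.43 at 3 h in wild-type cells, and in LysM-St18flox cells 4.99 and 5.57. The differences were 0.56 and 0.58, or 1.47-fold and 1.50-fold. For Clec4a2, the other inhibitory receptor, the probe's values of -5.25, -5.26, -4.87 and -5.01 were not well above background, so no fold is given.

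**Figure D2:**
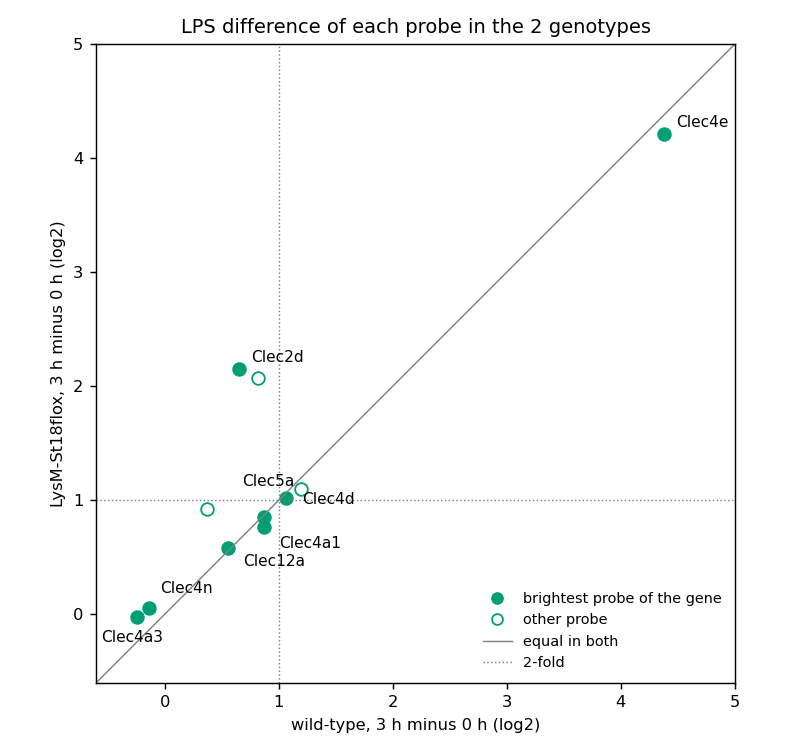
LPS difference (3 h minus 0 h, log2) in wild-type cells on the horizontal axis and in LysM-St18flox cells on the vertical axis for the 11 measured probes, filled for the brightest probe of a gene; each point compares single arrays. Clec4e lies at 4.38 and 4.21 near the line of equal response, while both Clec2d probes lie above it, at 0.65 and 2.15 and at 0.82 and 2.07.

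In wild-type cells 2 of the 8 measured members were at least 2-fold higher after LPS (Clec4e and Clec4d), 25.0% of them, and none was at least 2-fold lower. Of all measured genes, 9.04% were past 2-fold upward and 11.6% downward. In LysM-St18flox cells 3 of 8 were at least 2-fold higher (Clec4e, Clec2d and Clec4d), or 37.5%, against 8.12% of all genes, and none was lower, against 8.97%. The median of the members was 0.76 in wild-type and 0.81 in LysM-St18flox cells, while that of all genes was -0.11 and -0.09. Median scaling gave LysM-St18flox cells a median of 1.04 for the members and 0.14 for all genes, with 4 of 8 members (Clec5a added) and 10.6% of all genes at least 2-fold higher, and none and 5.72% lower. With 8 members, a share rests on 2 or 3 genes.

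Neutrophils also carry several of these receptors, and the neutrophil marker list varied between the arrays. Of its 12 names, 11 had a probe, Ngp was well above background on none of the arrays and Cxcr2 not on the 3 h arrays. Its summed signal, as a multiple of the array's 75th percentile, went from 161 to 248 between 0 h and 3 h in wild-type cells, and from 163 to 174 in LysM-St18flox cells. That of the 10 macrophage markers was 702, 774, 620 and 717 in the same order. The brightest neutrophil marker on each array, Csf3r, read 6.33, 7.09, 7.02 and 7.08 in that order, and it weighs most in the sum. Other markers differed from it, with S100a9 at 5.64, 6.02, 3.39 and 3.28 and Retnlg at 3.07, 2.78, 3.88 and 3.90. Between genotypes at 0 h, 5 of 10 measured neutrophil markers were above 0 and 5 below. Between 0 h and 3 h, 1 of 9 measured neutrophil markers was at least 2-fold higher in each genotype, Lcn2 (4.01 and 4.71). This is 11.1%, against 9.04% of all genes in wild-type and 8.12% in LysM-St18flox cells. Their part in the LPS differences was not tested.

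Clec2d was the member whose LPS response differed most between genotypes. Its brighter probe read 1.80 at 0 h and 2.45 at 3 h in wild-type cells, and in LysM-St18flox cells 1.35 and 3.50. The second probe read 1.46 at 0 h and 2.28 at 3 h in the wild type, against 1.19 and 3.26 in LysM-St18flox cells. On both probes the LysM-St18flox 3 h array was the highest of the 4 and the LysM-St18flox 0 h array the lowest. The LPS difference was 1.57-fold in wild-type and 4.44-fold in LysM-St18flox cells on the first probe, and 1.76-fold and 4.21-fold on the second.

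The LPS difference of LysM-St18flox cells minus that of wild-type cells was 1.50 for the brighter Clec2d probe and 1.26 for the other. For the other 7 measured members it lay between -0.17 (Clec4e) and 0.22 (Clec4a3), with a median over the 8 of 0.00. Thus 1 of 8 members had a response at least 2-fold larger in LysM-St18flox cells (12.5%), against 2.90% of 12341 genes, and none a response at least 2-fold smaller, against 2.41%. Under median scaling the counts of members were the same, the members' median was 0.15, and the shares of all genes were 4.34% and 1.73%. Of those genes, 92 had a higher value than Clec2d. Among 60 genes past 2-fold in this direction with a second measured probe, the second probe was also past 2-fold for 7, or 11.7%, and Clec2d was one of them. The wild-type 0 h array, whose probes disagree more, is part of this value. The difference between the responses could not be tested with 1 array in a group.

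Between genotypes, Clec4n had the lowest difference (LysM-St18flox minus wild-type) of the measured members at each time. Of the 8 measured, 6 were lower at 0 h and 5 at 3 h, beside 6729 of 12676 and 6855 of 13046 genes. With 8 members, these counts do not set the members apart from all genes. The 3 h count includes Clec4a3 (-0.05), whose difference was within the spot error. Of the macrophage markers, 7 of 10 were lower at each time, with medians of -0.25 at 0 h and -0.08 at 3 h. At 0 h 1 of the 10 was at least 2-fold higher, Lyz2 (1.20), which at 3 h was at -0.23. At 0 h, Clec4n was 1.82-fold lower in LysM-St18flox cells (log2 -0.86), and at 3 h 1.59-fold lower (log2 -0.67). Both values rest on 1 probe with 1 spot, and the 0 h value includes the wild-type 0 h array, whose probes disagree more. Both LysM-St18flox arrays, at 2.06 and 2.11, were below both wild-type arrays, at 2.92 and 2.78. At 0 h 657 of 12676 genes had a lower value and at 3 h 391 of 13046. Under median scaling the 0 h difference lay just past 2-fold lower.

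The neighbours Clec4d and Clec4e were also lower in LysM-St18flox cells at both times. For Clec4d the difference was -0.34 at 0 h and -0.39 at 3 h, and for Clec4e -0.24 and -0.40, each less than 1.4-fold. Clec4a1 differed by -0.19 and -0.30, and the first was 0.01 with normexp correction. Clec4a3 differed by -0.26 and -0.05. Clec12a was at 0.11 and 0.13, the first turning to -0.02 under median scaling, and the brightest Clec5a probe at 0.06 and 0.04, near the spot error. The other Clec5a probes did not share one sign, with the middle one at -0.74 and -0.20 and the dimmest at 0.22 and 0.12. The Clec5a difference at 0 h changed sign under median scaling (-0.08), with normexp correction (-0.01) and with the mean of its probes (-0.16).

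Clec2d was the one measured member on the other side of 0 at the 2 times. In LysM-St18flox cells its brighter probe was 1.37-fold lower at 0 h (-0.45) and 2.07-fold higher at 3 h (1.05). The second probe gave -0.28 and 0.98. At 3 h, 208 of 13046 genes had a higher value. Under quantile normalization the 3 h value of the brighter probe was 0.99.

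**Figure D3:**
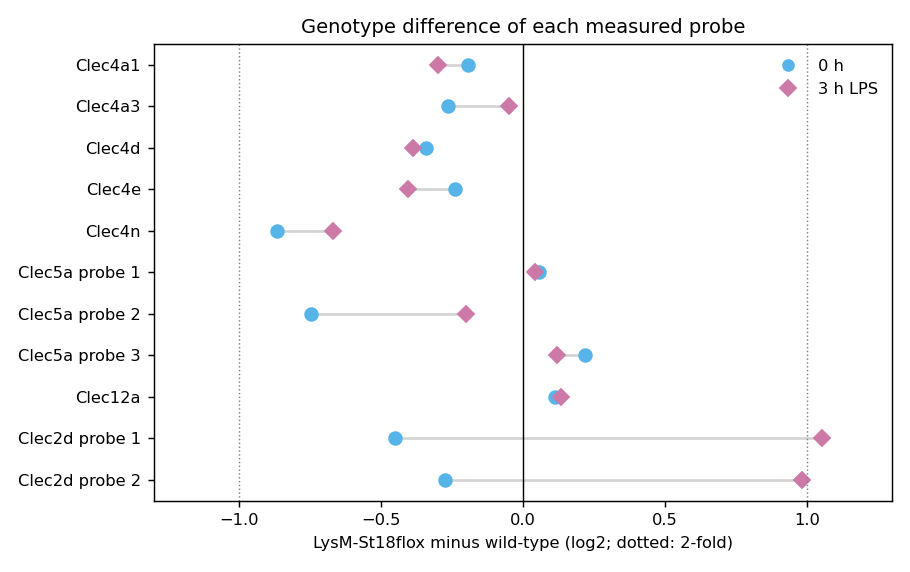
Difference between genotypes (LysM-St18flox minus wild-type, log2) at 0 h as circles and at 3 h as diamonds for the 11 measured probes; each symbol compares 2 single arrays. Clec4n lies at -0.86 and -0.67, and the 2 Clec2d probes go from -0.45 and -0.28 at 0 h to 1.05 and 0.98 at 3 h.

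At 0 h no measured member was at least 2-fold higher or lower between genotypes, against 3.04% and 3.03% of all genes, and under median scaling 2.33% and 5.22%. The median of the members was -0.25, beside -0.03 for all genes, and under median scaling the 2 medians were -0.39 and -0.17. At 3 h 1 of 8 members was at least 2-fold higher, Clec2d, against 1.82% of all genes, and none lower, against 1.40%. The median of the members was -0.17, beside -0.01 for all genes. The comparisons share arrays with the LPS responses, so the member values are set side by side and not related to each other.

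Marker lists of other cell types differed between genotypes in the same arrays. Of the 10 B cell markers, 7 were measured in both genotypes and 5 of these stood past 2-fold on the LysM-St18flox side at each time, while Cd79a, Ebf1 and Blk were not well above background in wild-type cells. Their summed signal was 6.37 and 4.70 in wild-type cells at 0 h and 3 h, and 25.1 and 20.1 in LysM-St18flox cells. The sum was therefore higher in LysM-St18flox cells at both times. Neutrophil markers were at least 2-fold lower for 4 of 10 at 0 h, and for 3 of 9 at 3 h, where 1 was higher. The dendritic cell markers summed to 17.3 and 18.4 in wild-type and 28.0 and 29.9 in LysM-St18flox cells, with Xcr1 not well above background on any array. Of those measured, 1 of 5 was at least 2-fold higher at 0 h and none of 6 at 3 h, with Itgax at 0.66 and 0.90 and Flt3 at -0.14 and -0.16. The 4 monocyte markers summed to 55.9 and 73.8 in wild-type and 51.2 and 60.9 in LysM-St18flox cells, with Chil3 the brightest on each array. None of the 4 was past 2-fold at 0 h, and 1 was higher at 3 h, Ly6c2 (0.19 at 0 h and 1.25 at 3 h). Chil3 was at -0.19 and -0.46, and at each time 2 of the 4 were above 0 and 2 below. Other lists also differed. At both times 3 of 3 measured erythroid markers were higher past 2-fold (medians 2.79 and 3.27), and 5 of 5 mesothelial and fibroblast markers were lower (medians -1.26 and -1.70). For 0 h and 3 h, the counts past 2-fold upward were 3 and 4 of 5 mast cell markers, 3 and 1 of 5 eosinophil markers, and 4 and 2 of 7 markers of large peritoneal macrophages. Of T and NK cell markers, 3 of 7 were higher and 1 lower at 0 h, and 4 of 9 higher at 3 h. The part of these cell types in the differences of Clec4n and Clec2d was not tested.

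All 10 members lie on mouse chromosome 6, and 6 of them fall in an unbroken run of 9 protein-coding genes, all of them C-type lectin genes, in the order of the RefSeq table. Of these 9, 7 were measured on all 4 arrays. In that run the differences after LPS were uneven between neighbours. Clec4n, Clec4d and Clec4e follow one another and gave -0.14, 1.06 and 4.38 in the wild type, and 0.06, 1.02 and 4.21 in LysM-St18flox cells. At the other end, Clec4a1, Clec4a3 and Clec4a4 gave 0.87, -0.24 and -1.28 in the wild type, and 0.77, -0.02 and -0.44 in LysM-St18flox cells. The Clec4a4 signal at wild-type 3 h, -4.24, was near that array's lowest value well above background, -4.41. Clec4b1 gave 0.26 and -0.16, and Clec4b2 was, like Clec4a2, not well above background on any array.

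Clec2d stands next to Cd69, an activation marker of lymphocytes and myeloid cells, on the same chromosome. Cd69 was not well above background at wild-type 0 h and was at least 84.3-fold higher at wild-type 3 h. In LysM-St18flox cells it was 74.5-fold higher at 3 h (log2 6.22). Between genotypes it was higher in LysM-St18flox cells, at least 2.47-fold at 0 h and 2.19-fold at 3 h (1.13). At 3 h both neighbours were thus higher in LysM-St18flox cells, and at 0 h Clec2d was lower where Cd69 was higher. The lectin-like gene on its other side, Clec2e, was below the detection rule on all 4 arrays.

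**Figure D4:**
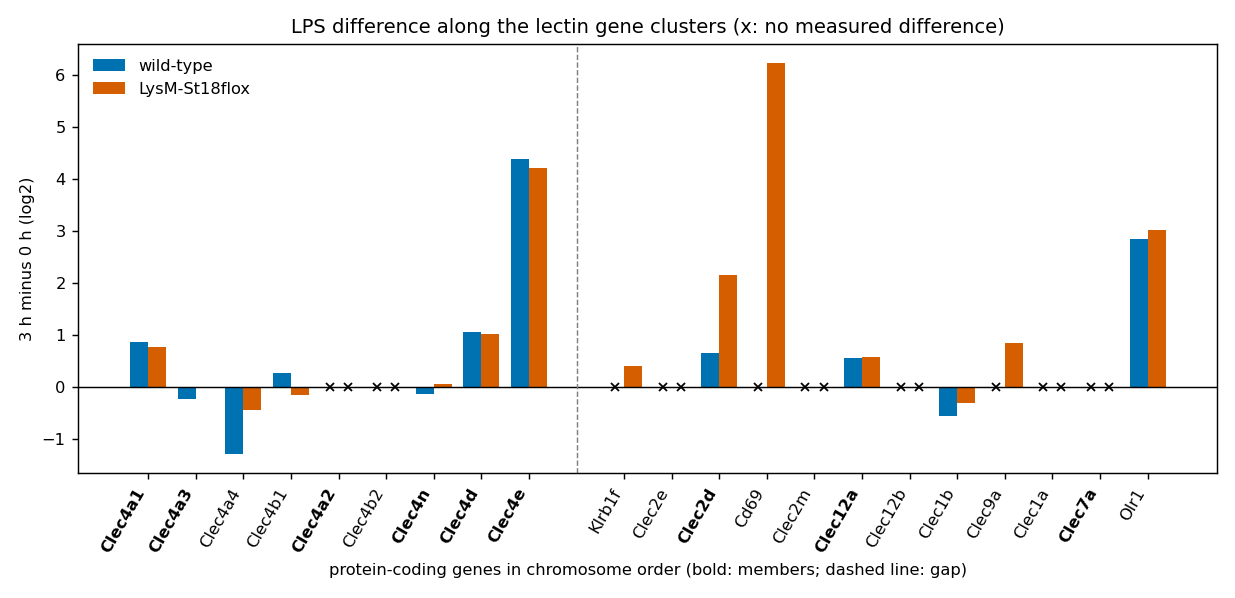
LPS difference (3 h minus 0 h, log2) in wild-type and LysM-St18flox cells as bars from 0, for protein-coding genes in chromosome order, with members in bold, a dashed line where genes are left out and a cross where no difference was measured; each bar compares 2 single arrays. Clec4e (4.38 and 4.21) stands beside Clec4d (1.06 and 1.02) and Clec4n (-0.14 and 0.06), and Clec2d (0.65 and 2.15) beside Cd69.

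Components of the receptors' signalling pathway were read from a list of 22 genes, of which 21 were measured at both times in each genotype. The adaptor chain gene Fcer1g, used by Mincle, MCL and Dectin-2, read 7.55 and 7.67 in the wild type against 7.04 and 7.37 in LysM-St18flox cells, LPS differences of 0.12 and 0.33. The adaptor gene Tyrobp, used by Clec5a, gave -0.29 and 0.10, and the related Hcst -0.27 and 0.07. Syk was 1.14 higher in wild-type cells and 0.75 in LysM-St18flox cells. Downstream, Malt1 was 3.71 and 3.25 higher and Bcl10 0.92 and 1.23, whereas their partner Card9 gave -0.16 and -0.29. The Card9 signal was dim, from -2.85 to -3.49 over the arrays, whose lowest values well above background were -4.13 to -4.74.

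Of the Src family kinase genes, Fgr was 0.92 and 0.90 higher after LPS and Lyn 0.44 and 0.53. Src was not well above background at 0 h and was at least 22.7-fold higher at wild-type 3 h and at least 9.23-fold higher at LysM-St18flox 3 h. The phosphatase genes that act with inhibitory receptors differed among themselves. Inpp5d (SHIP-1) was at -1.88 and -1.55, Ptpn6 (SHP-1) at -1.18 and -0.55, and Ptpn11 (SHP-2) at 0.83 and 0.55. The remaining genes were Vav3 (1.03 and 1.16), Map3k7 (1.03 and 0.61), Prkcd (0.43 and 0.62), Rubcn (-0.94 in both), Nfatc1 (-0.74 and -0.65), Vav1, Nfatc2, Ppp3r1 and Plcg2, the last 4 between -0.48 and 0.10.

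Among the 21 signalling genes, LPS gave 4 past 2-fold upward and 2 downward in wild-type cells, against 3 and 1 in LysM-St18flox cells. These are 19.0% and 9.52%, beside 9.04% and 11.6% of all genes, and 14.3% and 4.76%, beside 8.12% and 8.97%. Their medians were -0.03 and 0.10. Between genotypes none of 21 was past 2-fold at 0 h, and at 3 h 1 of 22 was, Src at -1.29. The difference was largest at 0 h for Ptpn6 (-0.87), which at 3 h was at -0.23.

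**Figure D5:**
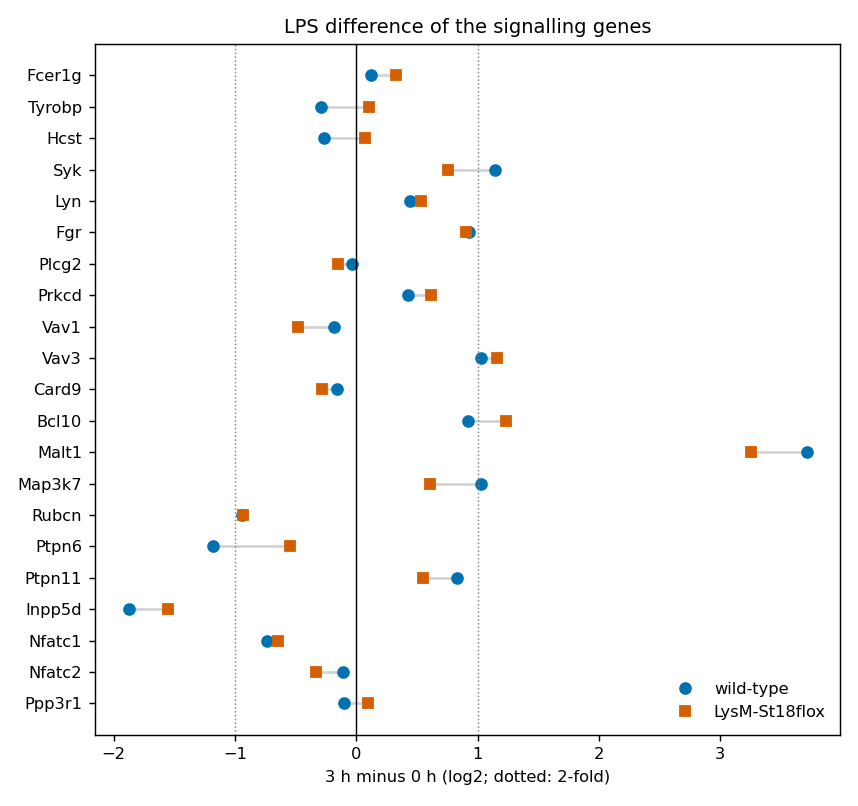
LPS difference (3 h minus 0 h, log2) of the 21 measured signalling genes in wild-type cells (circles) and LysM-St18flox cells (squares); each symbol compares 2 single arrays and dotted lines mark 2-fold. Malt1 (3.71 and 3.25) lies farthest to the right and Inpp5d (-1.88 and -1.55) farthest to the left.

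A list of 38 other C-type lectin and related genes showed how the members stood beside their relatives. In wild-type cells 17 of these were measured, of which 1 was at least 2-fold higher after LPS and 4 lower, and in LysM-St18flox cells 22, of which 2 were higher and 3 lower. As shares these were 5.88% and 23.5% in wild-type cells, beside 9.04% and 11.6% of all genes, and 9.09% and 13.6% in LysM-St18flox cells, beside 8.12% and 8.97%. Their medians were -0.18 and -0.20, against 0.76 and 0.81 for the members. The scavenger receptor gene Olr1, which like Clec7a and Clec12a lies in the second lectin cluster, was 2.85 and 3.02 higher. Thbd, the thrombomodulin gene, was lower by a log2 difference of -3.54 and -3.56. Of the genes named Clec2 in this list, Clec2i was at -1.84 and -1.69 and Clec2g at -1.70 and -1.50, with the sign opposite to Clec2d, while Clec2e, Clec2f and Clec2h were not well above background. Cd69, also in the list, had the same sign as Clec2d. Klrb1b, which encodes an inhibitory receptor for Clr-b, was measured at -0.70 and -0.92. Its signal was dim, from -2.86 to -3.79 over the arrays, whose lowest values well above background were -4.13 to -4.74. Macrophage lectins such as Mrc1 (0.05 and 0.26), Clec10a (0.32 and 0.37), Mgl2 (-0.08 and 0.40) and Colec12 (-0.01 and -0.21) were within 0.40 of 0.

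Between genotypes 1 of 18 of these relatives was at least 2-fold higher at 0 h, Asgr2 (1.55), and 2 of 22 at 3 h, Cd69 (1.13) and Asgr2 (1.03). In wild-type cells the Asgr2 signal was dim, at -3.24 and -3.30. Clec4b1 was 0.95 and 0.53 higher in LysM-St18flox cells, in the same gene run in which Clec4n was lower. Cd209a was at 0.72 and 0.96 and Clec10a at 0.60 and 0.64; Cd209a is also one of the dendritic cell markers.

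The genes whose 4 values were most like those of Clec4e were sought among 11614 named genes, by the Euclidean distance between log2 values centred on their mean over the 4 arrays. Among the nearest were Marcksl1-ps4 (0.09), Rab11fip1 (0.19), Marcksl1 (0.32) and Slfn1 (0.43). Marcksl1-ps4 and Marcksl1 are a pseudogene and its parent, which may share signal. For Clec4a3, the measured member with the lowest LPS difference, the nearest were Zfp58, Ubxn1, Mtm1, Zfp467 and Anapc5, all at 0.02 to 0.03. With 4 arrays, such likeness is a description of these arrays.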

How the data were processed

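RNA of 4 samples, 1 for each genotype and time, was hybridised to Agilent 1-colour arrays on 1 slide. The deposited spot intensity values are, per the file headers, Agilent Feature Extraction's processed signals (version 11.0.1.1), background-subtracted and detrended but not normalized between arrays. The deposited value table holds log2 values of 25482 probes; its 4 columns share 1 distribution of values (sorted values equal within 0.001) and 11 of the 12 member probes, and its steps are not given in the sources used here.

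From the intensities, the log2 processed signal minus the array's 75th percentile was taken (Python 3.11.15, pandas 2.3.3), spots of a probe were averaged, and control spots and spots flagged as outliers were left out. Names came from matching accessions without versions to the RefSeq table of GRCm38.p6 (32989 of 35886 RefSeq probes). As the array design uses mm9, that table gave names and gene order, and its coordinates are given for promoter sequences alone. The probe brightest over the 4 arrays stood for its gene, which was measured in a comparison if both arrays had the probe well above background. A gene detected on 1 side was given as a bound: its bright value minus the dim array's lowest value well above background, or minus the dim probe's own value where that was higher.

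Genes past a 2-fold difference were counted, and no p-value was computed. Steps were tested on simulated data. The alternatives were normexp correction (limma 3.58.1, offset 50, on median signals), median scaling, quantile normalization, the mean of all measured probes, no background filter, a filter on all 4 arrays, and the deposited value table. All members, and the genes of the lists, are named by a rule set with the lists; from the marker lists few are named. Some genes are not reported here and were left out of the list counts. The members and lists were chosen with earlier results of these data known.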

Additional observations from a re-analysis of the deposited data

Results flagged for a closer look

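Clec2d was picked out because its genotype difference had opposite signs at the 2 times, -0.45 at 0 h and 1.05 at 3 h (LysM-St18flox minus wild-type, log2), on 1 array per group. Clec4n was picked out because its LPS difference had opposite signs in the 2 genotypes, -0.14 in wild-type and 0.060 in LysM-St18flox cells. Neither difference between groups was tested, as there are no replicates. For Clec4n the LysM-St18flox value was near the spot error of 0.05 and changed sign under 3 of the 7 alternatives.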

How the results depend on the processing

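Of 10 counts of members past 2-fold, recomputed under 7 alternatives, 66 values stayed within 1.5 times the reported count and 4 did not. Under quantile normalization and in the deposited value table, 1 member and not 2 was at least 2-fold higher after LPS in wild-type cells, as Clec4d was at 0.98 and 0.88. Under median scaling, 1 member (Clec4n) was past 2-fold downward between genotypes at 0 h, and under quantile normalization 0 members were higher at 3 h. In LysM-St18flox cells, Clec4d was at 0.99 with normexp correction, 0.85 under quantile normalization and 0.72 in the deposited value table. Over all alternatives Clec4e ranged from 4.17 to 4.47 in wild-type and from 4.06 to 4.44 in LysM-St18flox cells, and the difference of the Clec2d responses from 1.37 to 1.65. Of 315 single member values and medians, 209 stayed within the spot error and 20 changed sign. Before the change, all 20 were 0.19 or less in size. After it, the largest was 0.21, for the LPS difference of Clec4a3 in LysM-St18flox cells under median scaling. The alternatives with no background filter and with a filter on all 4 arrays gave 43 and 45 of the 209. Neither can move the value of a measured member, and the counts of members were the same under both. The mean of all measured probes gave 35 of the 209. It can move only Clec5a, Clec2d and the medians, as each other measured member has 1 probe. Many of the 209 values could thus not have moved. No paired analysis was possible because each group has 1 array, and for the same reason no replicate could be left out. A slide block was not run, as there is 1 slide. Signal near background limits Clec4a2, whose single probe was not well above background.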
